A study of Homo sapiens with 9 samples.

Results

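The genes described here encode the enzymes of glycolysis and the proteins that decide the fate of its product, pyruvate. The set holds 35 genes, chosen by name from the pathway: the hexokinases, the enzymes from glucose-6-phosphate isomerase to pyruvate kinase, the enzymes that make and remove fructose 2,6-bisphosphate, lactate dehydrogenase, the monocarboxylate transporters, the mitochondrial pyruvate carrier, the pyruvate dehydrogenase complex and its kinases. All 35 were found among the 38021 genes of the count table. The RNA came from cultures of 786-O, an established clear cell renal cell carcinoma (ccRCC) line without functional VHL in which HIF2α (encoded by EPAS1) is stable at normal oxygen. Every culture carried a lentiviral short hairpin RNA (shRNA) and was selected with puromycin: a non-targeting hairpin (shControl), a hairpin against ARNT (shARNT) or a hairpin against BMAL1 (shBMAL1; the table uses the older symbol ARNTL). There were 3 libraries per group, labelled as biological replicates, and 9 in all. A single hairpin was used per target in a single line, so effects of a hairpin other than on its target cannot be told apart from those of losing the target. In such bulk RNA, fewer cells of a kind and less RNA per cell cannot be told apart. Nothing in the labels says what separated the replicate cultures, so p values measure the spread between these libraries, which may be partly technical.

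Glycolysis splits glucose into pyruvate in the cytosol. Hexokinase traps glucose as glucose 6-phosphate, phosphofructokinase commits it to breakdown, and pyruvate kinase closes the chain. Pyruvate is then either reduced to lactate by lactate dehydrogenase and exported, or carried into mitochondria and oxidized by the pyruvate dehydrogenase complex, which the pyruvate dehydrogenase kinases switch off. Most steps have several isozymes made by separate genes. Many of these genes are textbook targets of the hypoxia-inducible factors (HIFs), which bind DNA as a dimer of HIFα with ARNT, and ccRCC is known for high glycolytic gene expression. BMAL1 is a relative of ARNT that pairs with CLOCK in the circadian clock. The comparisons ask how transcripts of each step and isozyme respond when either partner is depleted.

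The libraries held 33793045 to 35444735 reads. ARNT had 2187, 2551 and 2318 normalized counts (reads divided by library size factors) in the shControl libraries and 1239, 1238 and 1199 in shARNT. ARNTL had 751.6, 796.7 and 734.9 in shControl and 345.5, 292.3 and 339.8 in shBMAL1. Each target was therefore lower in its own knockdown, without overlap. ARNT was also lower under shBMAL1 (log2 fold change −0.23, SE 0.08, DESeq2 adjusted p = 0.0187) and ARNTL under shARNT (−0.26, SE 0.10, adjusted p = 0.0293). EPAS1 averaged 11110 ± 568 normalized counts in the controls, 9426 ± 594 with shARNT and 10660 ± 585 with shBMAL1 (SD, n = 3), and was called lower under shARNT (−0.23, SE 0.06, adjusted p = 0.000562). HIF1A, which encodes the other main HIFα, was called higher in both knockdowns at the RNA level, with 2600 ± 105 normalized counts in the controls, 3460 ± 13.5 with shARNT (0.42, SE 0.06, adjusted p = 2e-11) and 3983 ± 58.5 with shBMAL1 (0.61, SE 0.07, adjusted p = 2.4e-18). These counts do not show whether this line makes functional HIF1α protein. Mitochondrially encoded genes took 6.21% ± 0.854 of control reads, 8.06% ± 0.604 with shARNT and 9.33% ± 0.538 with shBMAL1 (SD, n = 3), and the part of this shift in the results was not tested. The renal carcinoma markers PAX8, PAX2, VIM, KRT8, KRT18 and EPAS1 were detected in every group. Of 12 markers of other cells, PTPRC, CD3E, VWF, CDH5, UMOD, SLC12A1 and AQP2 had 0 to 3 reads per group, and PECAM1, ALB and DES had 1 to 23. The summed level of those 12, nearly all from CD68 with a little MYH11, was 7291 to 8023 normalized counts in shControl, 6874 to 7505 in shARNT and 5464 to 6881 in shBMAL1, and its part in the results was not tested.

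Promoter sequence is shown for 6 members because the letters bound by the depleted factors can be read in it: a HIF dimer recognizes ACGTG or GCGTG, and BMAL1 with CLOCK recognizes the palindrome CACGTG, which itself contains ACGTG on both strands. RefSeq promoter windows (GRCh38.p14, 250 bases before to 50 after a start site) were found for 33 of the 35 members, in 65 windows. ACGTG on either strand stood in 35.4% of the member windows and in 21.4% of all 35116 windows, GCGTG in 44.6% and 36.5%, and CACGTG in 12.3% and 7.26%. These are shares of letters and say nothing of binding. Stretches were placed on GRCh37 by exact match, each read 5′ to 3′ on the strand of its gene, with every match to these letters in capitals.
LDHA (chr11:18415915-18416054, plus strand): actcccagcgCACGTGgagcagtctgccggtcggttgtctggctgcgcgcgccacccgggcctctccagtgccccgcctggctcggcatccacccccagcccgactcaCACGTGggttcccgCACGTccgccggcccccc
HK2 (chr2:75062092-75062241, plus strand): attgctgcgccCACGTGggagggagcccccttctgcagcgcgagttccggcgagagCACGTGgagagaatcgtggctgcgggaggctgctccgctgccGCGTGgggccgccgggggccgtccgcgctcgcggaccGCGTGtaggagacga
PGK1 (chrX:77359525-77359584, plus strand): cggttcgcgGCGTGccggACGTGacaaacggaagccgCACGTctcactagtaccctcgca
SLC16A3 (chr17:80186828-80186887, plus strand): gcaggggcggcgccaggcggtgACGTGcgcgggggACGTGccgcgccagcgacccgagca
ENO2 (chr12:7023613-7023642, plus strand): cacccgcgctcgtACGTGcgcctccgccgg
PFKFB4 (chr3:48594387-48594416, minus strand): ggtgagttgggcatGCGTGgtcggaggccg
LDHA and HK2 each hold CACGTG at 2 places, starting 185 and 87 bases before the start site in LDHA and 194 and 149 before it in HK2. PGK1, SLC16A3 and ENO2 hold ACGTG without the full palindrome, and PFKFB4 holds GCGTG. The LDHA, HK2, PGK1 and SLC16A3 stretches lie outside every exon of the GENCODE annotation, whereas those of ENO2 and PFKFB4 lie in exons of other transcripts of the same genes. In the windows of PGAM1 and PDK4 none of these letters was found. The 6 stretches were picked, and all 6 genes were called lower under shARNT, so they cannot stand for all members. HK1, which fell in both knockdowns, had GCGTG but no ACGTG in its windows. Across the set, 8 members had CACGTG in a window. Of these, LDHA, PFKFB3, PDK2 and PDHB were called higher under shBMAL1, and HK2, ALDOA, ALDOC and GAPDH lower.

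Under shARNT, 23 of the 35 members were called changed at a DESeq2 adjusted p under 0.1, 15 lower and 8 higher. Across all 15171 genes tested, 35.4% were called, 19.0% lower and 16.5% higher. The median log2 fold change was −0.09 over the members and 0.00278 over all genes tested. Under shBMAL1, 24 members were called, 18 lower and 6 higher, against 36.8% of 19047 genes called, 19.4% lower and 17.4% higher. The members' median was −0.21, and that of all genes tested 0.0155. Called changes of at least 1.5-fold were fewer: 3 members under shARNT (HK1, HK2 and PFKP), where 7.91% of all genes tested were called and moved that far, and 5 under shBMAL1 (HK1, HK2, PFKFB4, ENO2 and MPC2), where that share was 13.7%. These genes are deeply sequenced, which eases calling small changes: the median member had 3890 counts in the libraries of the shARNT comparison and the median gene tested 657. Among genes with a mean of at least 1000 counts, 49.1% were called under shARNT and 54.5% under shBMAL1, whereas 21 of 27 and 20 of 27 members of that depth were. The members were chosen with earlier results of these data known, so such counts beside all genes are descriptions. The 3 shControl libraries serve both comparisons, so the values of the knockdowns are only set side by side.

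**Figure D1:**
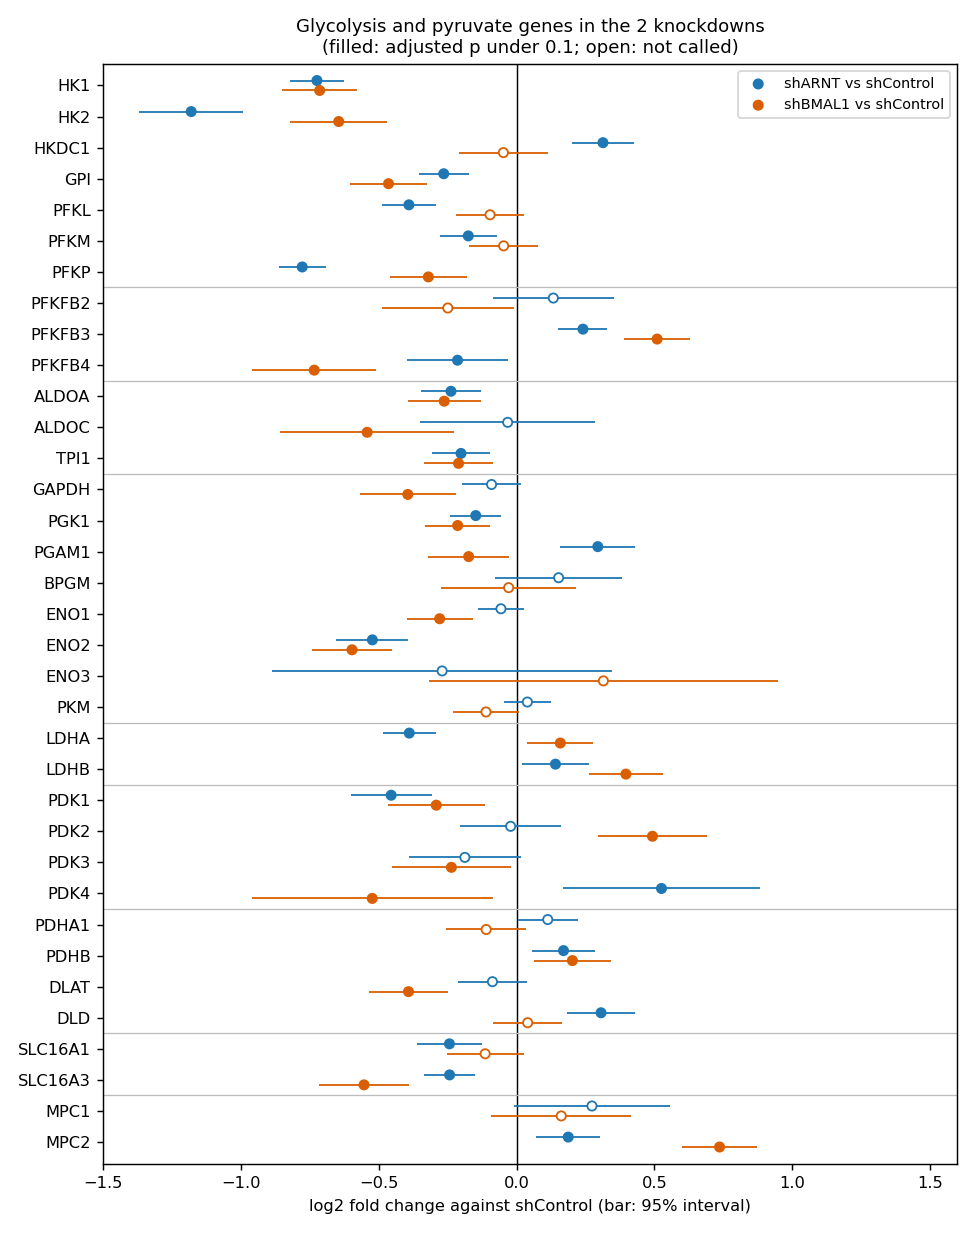
Log2 fold change of each of the 35 members (rows, in pathway order with lines between blocks) in shARNT (blue) and shBMAL1 (orange) against shControl, n = 3 libraries per group, with 95% intervals; filled points passed an adjusted p of 0.1. HK1, HK2, PFKP and ENO2 lie to the left in both knockdowns, MPC2 and PFKFB3 to the right, and LDHA, PGAM1 and PDK4 lie on opposite sides.

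The first step lost transcripts in both knockdowns, through HK1 and HK2 and not through HKDC1. HK1 (chr10:71029740-71161640, GRCh37), the widely expressed hexokinase docked on mitochondria, had 15350, 15590 and 14500 normalized counts in shControl, 9381, 8834 and 9228 in shARNT, and 9867, 8539 and 9320 in shBMAL1. Neither knockdown overlapped the control, and the knockdowns overlapped each other. The level fell to 0.605 of shControl under shARNT (log2 fold change −0.72, SE 0.05, adjusted p = 7.93e-45) and to 0.609 under shBMAL1 (−0.71, SE 0.07, adjusted p = 2.06e-23). The interval of the difference between the knockdowns ran from −0.12 to 0.15 on the log2 scale. HK2 (chr2:75061254-75120486), the inducible hexokinase of many tumors, had 1460, 1425 and 1280 counts in shControl, 675.2, 533.3 and 624.2 in shARNT, and 935.3, 857.7 and 873.5 in shBMAL1. Its 3 groups did not overlap, with shARNT lowest. The log2 fold change was −1.18 under shARNT (SE 0.10, adjusted p = 2.31e-32), the largest change of any member against shControl, and −0.65 under shBMAL1 (SE 0.09, adjusted p = 1.5e-11). HKDC1, a hexokinase domain protein encoded beside HK1, rose under shARNT (0.31, SE 0.06, adjusted p = 9.31e-07), while under shBMAL1 it was at −0.05 (SE 0.08, adjusted p = 0.728). GPI, which turns glucose 6-phosphate into fructose 6-phosphate, fell in both (−0.26, SE 0.05 under shARNT and −0.46, SE 0.07 under shBMAL1).

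Phosphofructokinase fell as a whole under shARNT, whereas under shBMAL1 the call was made for PFKP alone. PFKP (chr10:3108525-3179910), the platelet-type subunit and the most abundant of the 3 here, had 34610, 35160 and 34420 counts in shControl, 20140, 20730 and 19760 in shARNT, and 27390, 25540 and 30630 in shBMAL1. Its shBMAL1 libraries lay between the other groups and overlapped neither. PFKP fell to 0.583 of shControl under shARNT (log2 fold change −0.78, SE 0.04, adjusted p = 5.06e-69) and to 0.801 under shBMAL1 (−0.32, SE 0.07, adjusted p = 4.61e-05). PFKL, the liver-type subunit, fell under shARNT (−0.39, SE 0.05) and was at −0.10 (SE 0.06, adjusted p = 0.267) under shBMAL1, where it was called lower without shBMAL1 replicate 1 (−0.14, adjusted p = 0.0647). PFKM, the muscle-type subunit, fell slightly under shARNT (−0.18, SE 0.05) and was at −0.05 (SE 0.06, adjusted p = 0.649) under shBMAL1.

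The enzymes that set fructose 2,6-bisphosphate, the strongest activator of phosphofructokinase, moved apart from each other. PFKFB4 (chr3:48555117-48599448), a bifunctional member induced by hypoxia, had 745.6, 823.7 and 812.8 counts in shControl, 701.5, 630.5 and 716.6 in shARNT, and 477.6, 417.2 and 538.6 in shBMAL1. All shBMAL1 libraries lay below all others. It fell to 0.601 of shControl under shBMAL1 (log2 fold change −0.73, SE 0.11, adjusted p = 2.15e-09), whereas the shARNT change was small (−0.21, SE 0.09, adjusted p = 0.0706) and its call was lost in 7 of 12 alternative fits, the omission of shControl replicate 2 or 3 and of shARNT replicate 1 or 2 among them (largest adjusted p 0.319). PFKFB3, whose kinase activity far outweighs its phosphatase, rose from 8699 ± 90.7 counts to 10260 ± 105 under shARNT and 12410 ± 574 under shBMAL1 (SD, n = 3; adjusted p = 1.39e-06 and 1.75e-15). PFKFB2, the heart-type member, was called in neither knockdown (0.13, SE 0.11, and −0.25, SE 0.12, adjusted p = 0.111), although 6 of 12 alternative fits called it lower under shBMAL1 (lowest adjusted p 0.0615, without shControl replicate 3).

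**Figure D2:**
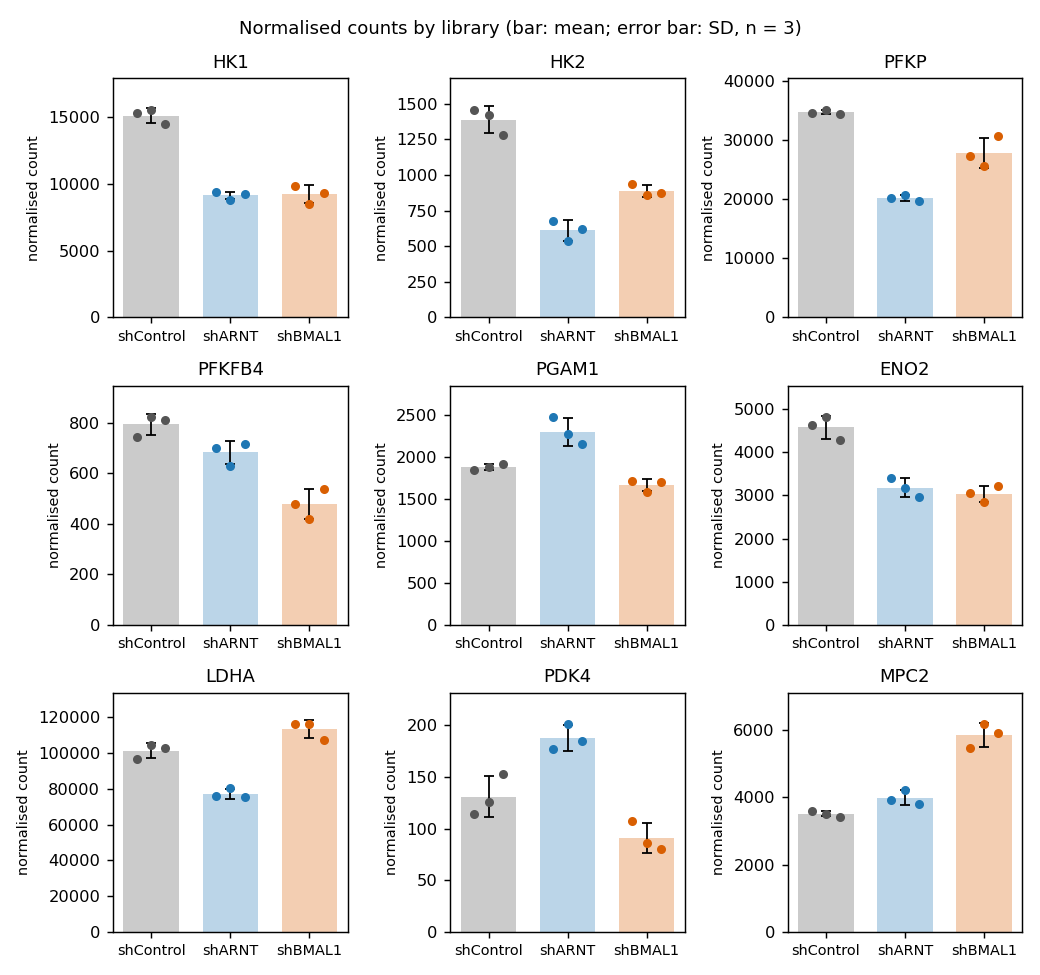
Normalized counts (vertical axes, each from 0) in every library for the 9 members that changed at least 1.5-fold in a comparison or were called in opposite directions by the knockdowns; bars are means and error bars SD of 3 libraries (shControl grey, shARNT blue, shBMAL1 orange). HK1 and ENO2 reach like levels in both knockdowns, HK2 and PFKP are lowest in shARNT, PFKFB4 is lowest in shBMAL1, and LDHA, PGAM1 and PDK4 rise in one knockdown and fall in the other. Some of the calls for LDHA, PGAM1 and PDK4 were lost in alternative fits.

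The steps from aldolase to phosphoglycerate kinase fell by small amounts. ALDOA, the main aldolase, fell to 0.848 of shControl under shARNT and 0.834 under shBMAL1 (log2 fold changes −0.24, SE 0.06, and −0.26, SE 0.07). ALDOC, the brain-type aldolase, fell under shBMAL1 (−0.54, SE 0.16, adjusted p = 0.00363) and was at −0.03 (SE 0.16, adjusted p = 0.916) under shARNT. TPI1, which interconverts the triose phosphates, was at 0.869 and 0.864 of shControl, and PGK1, the first ATP-yielding enzyme, at 0.902 and 0.862, all of them called. GAPDH, often taken as a reference gene, was the exception under shARNT: it was not called there (−0.09, SE 0.05, adjusted p = 0.213), although it was without shControl replicate 3 (−0.15, adjusted p = 0.0124), and it fell under shBMAL1 (−0.39, SE 0.09, adjusted p = 6.02e-05). Its shControl libraries had 174100, 170700 and 152400 counts and its shBMAL1 libraries 146200, 120600 and 111900, so the spread was wide but the groups did not overlap. The annotation lists 65 GAPDH pseudogenes, 13 of PGAM1 and 6 of LDHA, none of which had a row in the table, so reads of such copies could not be told apart from those of the gene.

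Below phosphoglycerate kinase, PGAM1 was called in opposite directions by the knockdowns, and ENO2 fell in both. PGAM1 (chr10:99185948-99193201), which moves the phosphate of 3-phosphoglycerate, had 1848, 1879 and 1915 counts in shControl, 2481, 2274 and 2152 in shARNT, and 1712, 1589 and 1707 in shBMAL1. It was above the control in every shARNT library and below it in every shBMAL1 library (log2 fold changes 0.29, SE 0.07, adjusted p = 0.000178, and −0.17, SE 0.08, adjusted p = 0.0619). The lower call was lost in 5 of 12 alternative fits, among them those without any one shControl replicate or without shBMAL1 replicate 2 (largest adjusted p 0.252), while the higher call held in all 12. PGAM4, a retrocopy of PGAM1 that lies within the span of PGK1, may share its reads. ENO2 (chr12:7022909-7032861), the neuronal enolase and a HIF target, had 4627, 4828 and 4296 counts in shControl, 3410, 3174 and 2962 in shARNT, and 3048, 2842 and 3212 in shBMAL1. Both knockdowns lay below the control and overlapped each other. ENO2 fell to 0.696 of shControl under shARNT (−0.52, SE 0.07, adjusted p = 1.42e-13) and 0.661 under shBMAL1 (−0.60, SE 0.07, adjusted p = 3.85e-14). ENO1, the main enolase, fell under shBMAL1 (−0.28, SE 0.06, adjusted p = 3.67e-05), and its shARNT value was −0.06 (SE 0.04, adjusted p = 0.335). PKM, the pyruvate kinase of most tissues and tumors, whose spliced forms are summed in 1 row here, was called in neither (0.04, SE 0.04, and −0.11, SE 0.06), although it was called higher under shARNT with the correction for GC content (0.09, adjusted p = 0.076) and lower under shBMAL1 without shBMAL1 replicate 1 (−0.15, adjusted p = 0.0271). BPGM, which makes 2,3-bisphosphoglycerate, and ENO3, the muscle enolase with 39.76 to 88.37 counts per library, were not called either.

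Lactate dehydrogenase separated the knockdowns. LDHA (chr11:18416107-18429972), the subunit that favors lactate formation, had 96500, 104700 and 102600 counts in shControl, 75710, 80480 and 75230 in shARNT, and 116200, 116000 and 107500 in shBMAL1. The groups did not overlap, with shARNT lowest and shBMAL1 highest. LDHA fell to 0.763 of shControl under shARNT (log2 fold change −0.39, SE 0.05, adjusted p = 8.73e-14). It rose under shBMAL1 by 0.16 (SE 0.06, adjusted p = 0.0333), a call that was lost without shControl replicate 1 or without shBMAL1 replicate 2 (largest adjusted p 0.211). LDHB, the subunit that favors the reverse reaction, rose under shBMAL1 from 35070 ± 2822 to 46240 ± 1434 counts (0.40, SE 0.07, adjusted p = 1.11e-07). Its shARNT value was 38590 ± 2227 (0.14, SE 0.06, adjusted p = 0.0743), with libraries that overlapped the control and a call lost in 6 of 12 alternative fits, those without shControl replicate 3 and without shARNT replicate 2 or 3 among them (largest adjusted p 0.398). SLC16A3 (MCT4), the lactate exporter induced by HIF, fell from 26690 ± 678 counts to 22500 ± 856 under shARNT and 18210 ± 2490 under shBMAL1 (−0.24, SE 0.05, adjusted p = 4.1e-06, and −0.55, SE 0.08, adjusted p = 6.9e-10). SLC16A1 (MCT1), which carries lactate in either direction, fell under shARNT (−0.24, SE 0.06, adjusted p = 0.000391) and was at −0.11 (SE 0.07, adjusted p = 0.237) under shBMAL1.

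Among the 4 pyruvate dehydrogenase kinases, PDK1 was called lower in both knockdowns, PDK2 higher under shBMAL1, and PDK4 in opposite directions. PDK1, the HIF-induced kinase, fell from 2000 ± 170 counts to 1456 ± 12.9 under shARNT and 1637 ± 135 under shBMAL1 (log2 fold changes −0.46, SE 0.08, and −0.29, SE 0.09). PDK2 rose under shBMAL1 to 1.407 times the control (0.49, SE 0.10, adjusted p = 8.4e-06) and was at −0.02 (SE 0.09, adjusted p = 0.903) under shARNT. PDK3 was called lower under shBMAL1 only narrowly (−0.24, SE 0.11, adjusted p = 0.0898), a call lost with the replicate block (adjusted p 0.211) and when any 1 of the 6 libraries was left out, and it was at −0.19 (SE 0.10, adjusted p = 0.171) under shARNT, where the fit with GC correction called it lower (−0.22, adjusted p = 0.0942). PDK4 (chr7:95212811-95225828), the kinase raised by fasting in many tissues, had 113.7, 126 and 152.6 counts in shControl, 177.3, 201.3 and 184.9 in shARNT, and 107.2, 85.66 and 80.3 in shBMAL1. All shARNT libraries lay above and all shBMAL1 libraries below the control. The rise (0.53, SE 0.18, adjusted p = 0.017) was lost without shControl replicate 1 or shARNT replicate 2 (largest adjusted p 0.127), and the fall (−0.52, SE 0.22, adjusted p = 0.058) was lost with the replicate block and without shControl replicate 2 or 3 or shBMAL1 replicate 2 or 3 (largest adjusted p 0.292).

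Of the carrier transcripts, MPC2 was called higher in both knockdowns and MPC1 in neither. MPC2 (chr1:167885913-167906310), a subunit of the mitochondrial pyruvate carrier, had 3580, 3515 and 3423 counts in shControl, 3919, 4228 and 3804 in shARNT, and 5470, 6173 and 5908 in shBMAL1. The groups did not overlap and rose in that order. MPC2 reached 1.666 times the control under shBMAL1 (log2 fold change 0.74, SE 0.07, adjusted p = 6.01e-25), and its rise under shARNT (0.19, SE 0.06, adjusted p = 0.00795) was lost without shARNT replicate 2 (adjusted p 0.103). MPC1, its obligate partner, was called in neither (0.27, SE 0.14, adjusted p = 0.148, and 0.16, SE 0.13, adjusted p = 0.387), although it was called higher under shARNT by edgeR (0.27, adjusted p = 0.0969) and without shARNT replicate 1 (0.41, adjusted p = 0.0226). MPC1 had far fewer reads, 290.3 to 422.3 normalized counts per library. Within the pyruvate dehydrogenase complex, DLD, the E3 subunit shared with other dehydrogenases, rose under shARNT (0.31, SE 0.06, adjusted p = 1.09e-05), and DLAT, the E2 core, fell under shBMAL1 (−0.39, SE 0.07, adjusted p = 1.2e-06). PDHB, the E1 beta subunit, rose by 0.17 (SE 0.06, adjusted p = 0.0171) and 0.20 (SE 0.07, adjusted p = 0.0166), each call lost without shControl replicate 3 and without replicate 2 of the knockdown. PDHA1, the E1 alpha subunit, was called in neither (0.11, SE 0.06, and −0.11, SE 0.07), although it was called higher under shARNT with GC correction (0.11, adjusted p = 0.0943) and lower under shBMAL1 without shBMAL1 replicate 3 (−0.17, adjusted p = 0.0782).

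In the direct comparison of the knockdowns, which does not use the control libraries, 23 of 35 members were called, of which 14 had less and 9 had more transcript with shBMAL1. Of all 17728 genes tested, 36.3% were called, 18.6% lower and 17.8% higher, and of those with a mean of at least 1000 counts 53.2%, against 18 of 26 members of that depth. Among the called members PDK4 alone reached 1.5-fold (log2 fold change −1.05, SE 0.20, adjusted p = 1.34e-06), while 11.6% of all genes tested were called and moved that far. ENO3, with few reads, was at 0.59 (SE 0.33, adjusted p = 0.172), and was called by edgeR (adjusted p 0.0825) and, at 0.83, once shBMAL1 replicate 2 was left out (adjusted p 0.0579). LDHA was higher in shBMAL1 by 0.55 (SE 0.06, adjusted p = 1.9e-18), MPC2 by 0.55 (SE 0.07, adjusted p = 5.92e-13), HK2 by 0.54 (SE 0.11, adjusted p = 4.68e-06), PDK2 by 0.52 (SE 0.11, adjusted p = 3.04e-05) and PFKP by 0.46 (SE 0.07, adjusted p = 1.99e-09). PFKFB4 was lower in shBMAL1 by −0.52 (SE 0.12, adjusted p = 9.65e-05), ALDOC by −0.51 (SE 0.17, adjusted p = 0.00999) and PGAM1 by −0.46 (SE 0.08, adjusted p = 9.48e-08). For LDHA, PGAM1 and PDK4, the 3 members called in opposite directions against the control, a difference between the knockdowns follows from that choice, and its size is given as a description. Of the members called lower in both knockdowns, HK1, ALDOA, TPI1, PGK1, ENO2 and PDK1 were not called here. The intervals of the first 5 stayed within −0.22 to 0.15 on the log2 scale. PDK1 was higher in every shBMAL1 library than in any shARNT library (0.17, SE 0.08, adjusted p = 0.12), and 4 of 12 alternative fits called it: edgeR (adjusted p 0.0892), the filter on low counts (0.0972), the GC correction (0.0664) and the fit without shBMAL1 replicate 1 (0.0215). The call for PFKM (0.13, SE 0.06, adjusted p = 0.099) was lost in 10 of 12 alternative fits. The call for PKM (−0.15, SE 0.06, adjusted p = 0.0443) was lost without shARNT replicate 1 or 3 or shBMAL1 replicate 2, those for GPI and PDHA1 without shBMAL1 replicate 2, and that for ALDOC without shARNT replicate 3.

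The composition of a step was followed as the share of 1 isozyme in the step's reads per kilobase of exon, which makes genes of different length comparable. HK2 made up 7.98%, 7.74% and 7.30% of hexokinase transcripts in shControl, 5.04%, 4.21% and 4.81% in shARNT, and 7.31%, 7.45% and 6.80% in shBMAL1. The share was thus lower in every shARNT library and overlapped the control in shBMAL1. LDHA made up 58.9% ± 2.36 of lactate dehydrogenase in the controls, 49.8% ± 1.45 with shARNT and 54.8% ± 0.668 with shBMAL1 (SD, n = 3), so its share was lower in every shBMAL1 library although its level was 1.116 times the control, beside 1.316 times for LDHB. PFKFB4 fell from 8.12% ± 0.484 of its family to 6.07% ± 0.392 and 3.64% ± 0.442, and PFKFB3 accounted for 88.8%, 91.0% and 94.5% in the same order. PFKP fell from 76.3% ± 0.0783 of phosphofructokinase to 69.7% ± 0.621 under shARNT and 73.0% ± 1.89 under shBMAL1. PDK1 went from 33.6% ± 2.27 of the kinases to 26.6% ± 2.09 and 24.8% ± 3.88, and PDK2 from 51.7% ± 1.19 to 55.0% ± 3.19 and 65.0% ± 3.96. ENO2 went from 4.22% ± 0.143 of enolase to 3.09% ± 0.235 and 3.42% ± 0.253. SLC16A3 held 79.6% ± 1.35 of the pair of lactate carriers in shControl and 79.6% ± 0.412 in shARNT, and 74.1% ± 1.70 in shBMAL1. ALDOC stayed under 1% of aldolase, at 0.454% ± 0.0426, 0.530% ± 0.126 and 0.377% ± 0.0241. In 19 of the 24 comparisons of 8 shares between pairs of groups the libraries did not overlap. Each of those had an exact two-sided permutation p of 0.1, the smallest that 3 against 3 libraries can give, and an adjusted p of 0.126 over the 24, so none could pass 0.1. The 24 comparisons reuse the same libraries, and no like count was made for other genes. The 19 is therefore a description and not a result about these steps. Shares depend on the transcript length assumed: with the length of the canonical transcript, a choice added after the data were seen, PDK3 held 36.8% of the kinases in shControl in place of 7.47%, PDK1 17.4%, HK2 4.77% of hexokinase and ENO2 2.73% of enolase. With reads not divided by length PDK1 held 52.7%.

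**Figure D3:**
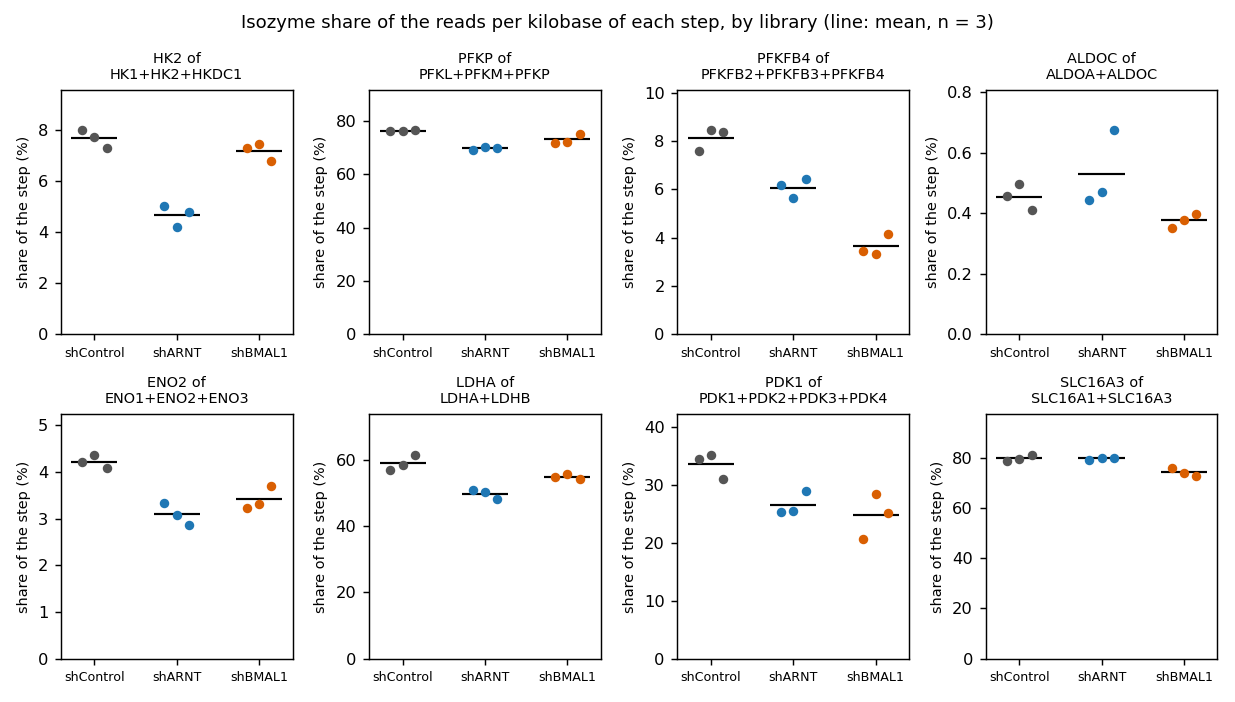
Share of 1 isozyme in the summed reads per kilobase of its step (percent, vertical axes from 0), 1 point per library with the group mean as a line. The HK2 points of shARNT lie below those of both other groups, whose points overlap, and so do the SLC16A3 points of shBMAL1; the PFKFB4 means go down from shControl to shARNT to shBMAL1, and the LDHA points are lowest in shARNT.

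Summed over isozymes, the levels of a step (RPKM, reads scaled to exon length and library total) showed where the pathway as a whole moved. Like the shares, sums over several isozymes depend on the transcript length assumed, and no other length was tried for them. Hexokinase stood at 87.1 ± 2.62 in shControl and at 73.2% of that in shARNT and 70.1% in shBMAL1. Phosphofructokinase was at 64.8% and 85.8%, and the lactate carriers at 85.8% and 74.9%. Lactate dehydrogenase went to 91.7% in shARNT and 123% in shBMAL1. The pyruvate carrier was at 116% and 164%, the fructose 2,6-bisphosphate enzymes at 117% and 137%, and the pyruvate dehydrogenase complex at 114% and 101%. Each of these sums lay wholly outside the range of the control libraries except that of the pyruvate dehydrogenase complex in shBMAL1. Pyruvate kinase and bisphosphoglycerate mutase overlapped the control in both knockdowns. Over all 35 members the sum was 5614 ± 241 RPKM in the controls, 5260 ± 81.7 with shARNT and 5052 ± 267 with shBMAL1 (SD, n = 3), of which GAPDH alone made up 1972 ± 149, 1879 ± 44.9 and 1536 ± 191. The members took 2.48% ± 0.077 of all reads in the controls, 2.30% ± 0.0273 with shARNT and 2.27% ± 0.0905 with shBMAL1.

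**Figure D4:**
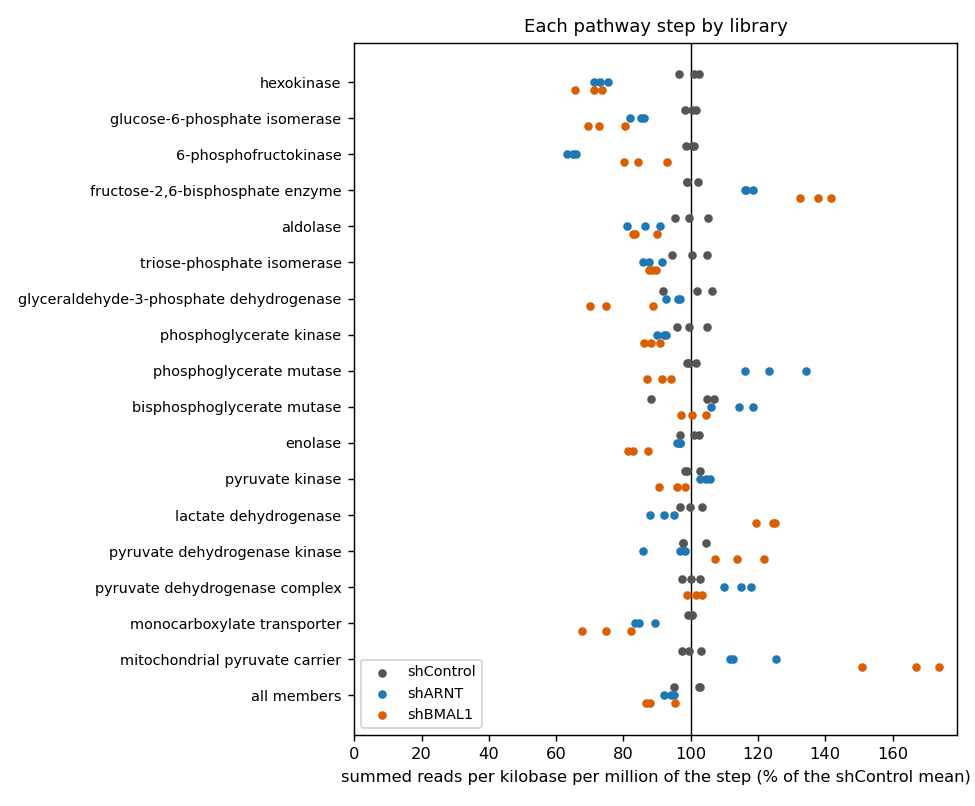
Summed RPKM of each of 17 pathway steps and of all members, 1 point per library, as a percentage of the shControl mean (horizontal axis from 0; shControl grey, shARNT blue, shBMAL1 orange). Hexokinase and the lactate carriers lie below the control in both knockdowns and the mitochondrial pyruvate carrier above it, while lactate dehydrogenase lies below it in shARNT and above it in shBMAL1.

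A further 33 genes of the pathway, such as tissue-restricted isozymes, phosphatases of the complex and enzymes of phosphoglucose and lipoate handling, were examined with the same fits. Under shARNT 20 of them had enough reads to be tested, and 1 was lower and 5 higher, or 30.0% called beside 35.4% of all genes tested. Under shBMAL1 21 were tested, with 5 lower and 7 higher (57.1% beside 36.8%), and in the direct comparison 21 were tested, with 7 lower and 2 higher (42.9% beside 36.3%). The 6 calls under shARNT became 3 with the replicate block, 2 without shARNT replicate 1 and 3 without shControl replicate 3 or shARNT replicate 2, and the 12 under shBMAL1 became 7 without shBMAL1 replicate 2. A change of at least 1.5-fold under shBMAL1 was called for PGM2, a phosphopentomutase (1922 ± 67.7 counts in shControl and 1266 ± 45.3 in shBMAL1, −0.60, SE 0.08, adjusted p = 1.77e-13), for LDHD, the mitochondrial D-lactate dehydrogenase (21.8 ± 1.27 and 44.8 ± 9.31 counts, 1.04, SE 0.38, adjusted p = 0.0253), and for PFKFB1, the liver-type bifunctional enzyme (13.7 ± 2.09 and 28.5 ± 3.70 counts, 1.05, SE 0.47, adjusted p = 0.0768). LDHD and PFKFB1 rest on few reads. In the direct comparison the same size was reached by LDHD (0.82, SE 0.37, adjusted p = 0.0801) and PDP1, the phosphatase that reactivates pyruvate dehydrogenase, which was lower in shBMAL1 (3192 ± 154 counts in shARNT and 2020 ± 85.7 in shBMAL1, −0.66, SE 0.07, adjusted p = 4.9e-18).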

How the data were processed

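The authors deposited estimated counts per gene (total reads, linear scale) for 9 libraries. The study's methods give SeqMan NGen for alignment, ArrayStar for quantification and GRCh37 as the genome, whereas the submitters' processing notes name STAR, DESeq2 and hg38. Annotation and counting strand were not given in the sources used here, so overlapping genes are uncertain. A placeholder of 0.009 was set to 0 (46.3% of cells), 53 rows sharing a name were merged, and values were rounded.

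Each comparison was fitted on its 6 libraries over all genes in DESeq2 1.42.0 (R 4.3.3; Wald test, median-of-ratios size factors, Benjamini-Hochberg adjustment) and called at an adjusted p under 0.1, as in the study. Normalized counts use size factors over 9 libraries. Shares and step levels used exon-union lengths from GENCODE v44 lifted to GRCh37, and shares were compared by exact permutation tests. The main fit was run on counts simulated from its own model for shARNT against shControl. Such a run cannot show whether the model holds for the real counts. Libraries of a group differed by more than sampling noise.

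Alternatives were edgeR 4.0.16, TMM size factors, a filter of 10 counts in 3 libraries, a threshold of 0.05, a 1.5-fold minimum, 1 fit of 9 libraries, a replicate block, a GC correction, other lengths and leaving out each library. Values in every library are given for members changed at least 1.5-fold or called in opposite directions, means or folds for others, and other pathway genes only past 1.5-fold, apart from PGAM4. Members and lists were chosen with earlier results of these data known. One listed marker gene is not reported here.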

Additional observations from a re-analysis of the deposited data

How the results depend on the processing

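The counts of members called, 23 under shARNT, 24 under shBMAL1 and 23 between the knockdowns, stayed within 1.5 times under each alternative except the 1.5-fold minimum, which left 3, 5 and 1. Without 1 library they ran from 18 to 23, from 19 to 26 and from 20 to 23, and 18, 19 and 18 of the calls held in all 12 fits. Replicate numbers did not pair the libraries (correlations of same-numbered deviations −0.154 to 0.105), and a replicate block gave 22, 21 and 22 members, with 4151, 5743 and 5386 genes called in all in place of 5376, 7005 and 6438. For the other genes of the pathway, examined with alternatives added after the data were seen, the block left 3 of 6 calls under shARNT. Leaving out 1 library gave 2 to 5 there, with 2 without shARNT replicate 1 and 3 without shControl replicate 3 or shARNT replicate 2, and 7 to 9 of 12 under shBMAL1, with 7 without shBMAL1 replicate 2. The 19 shares whose groups did not overlap were 19 with other lengths and 19 or 20 without 1 library.

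Signs turned only for values called neither in the reported fit nor in any alternative. With GC correction the log2 fold change of ALDOC under shARNT was 0.0319, that of PDK2 under shARNT 0.0265 and that of HK1 between the knockdowns −0.0231. Without 1 library, ALDOC under shARNT ran from −0.191 to 0.0844 and PDK2 from −0.0775 to 0.0806, and under shBMAL1 HKDC1 ran from −0.134 to 0.000958 and BPGM from −0.123 to 0.0206. Between the knockdowns, HK1 ran from −0.0339 to 0.0677, ALDOA from −0.0732 to 0.0190, TPI1 from −0.0274 to 0.0172, PDHB from −0.00553 to 0.0699 and MPC1 from −0.251 to 0.00782. The difference in the PDK1 share between the knockdowns ran from −3.65 to 0.210 percentage points, and that in the SLC16A3 share under shARNT from −0.581 to 0.745. The cause was not tested.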
